A study of Homo sapiens with 4 samples.

Results

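The matrix metalloproteinases, the related ADAM and ADAMTS proteases and their inhibitors were followed in cultured MDA-MB-231 cells. This established human line comes from a breast cancer of the triple-negative kind, which lacks the receptors for oestrogen and progesterone and has no excess of HER2. The 43 genes were chosen by name from these families and from a few regulators. The rule uses no measured value, but earlier results of these data were known when it was made. The members are 16 MMP, 4 TIMP, 9 ADAM and 11 ADAMTS genes, with RECK, BSG and HPSE. They are 43 of the 61471 gene names in each deposited table. All 43 were present in the tables, 38 had at least 1 count, and 28 had enough counts to be tested.

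Metalloproteinases are enzymes that cut proteins with the help of a zinc ion, and most are made as inactive precursors. MMPs cut collagens and other parts of the extracellular matrix, ADAMs mostly release the outer parts of membrane proteins, and ADAMTS proteases are secreted enzymes that cut proteoglycans and other matrix proteins. TIMPs bind these enzymes one to one and block them. In breast cancer cells the balance of these proteases and inhibitors is studied because tumour cells cross basement membrane and vessel walls when they spread.

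All 4 libraries came from cells labelled wild type (WT) and transfected with H2B-EGFP, a green-tagged histone, and CMV-RFP, a red protein driven by a viral promoter. The EGFP positive group (libraries 1 and 2) is labelled as lacking an increase in extravasation, the exit of tumour cells from a vessel, and the EGFP negative group (libraries 1 and 2) as having that increase. EGFP status and extravasation status therefore changed together and cannot be told apart. Whether the cells are 1 clone, and whether libraries 1 and 2 of a group are separate cultures, the labels do not say. The p-values therefore describe the spread between these libraries only, and that spread may be technical.

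Each library held 11445076 to 12635576 counts. H2BC11, an H2B gene whose counts served as a check of the labels, had 7733 and 7352 counts in EGFP positive libraries 1 and 2 and 88 and 64 in EGFP negative libraries 1 and 2. The 5 markers listed as present in this line were all detected, with 1 higher and 2 lower in EGFP negative cells. VIM rose and was at 4199 and 5813 CPM (counts scaled to library size; group means, EGFP positive first) and KRT8 at 412 and 438 CPM. EPCAM fell, from 13.2 and 12.8 CPM in the libraries to 6.83 and 6.86 CPM, as did CD44, at means of 865 and 641 CPM, and KRT18 was at 426 and 398 CPM. ESR1 and PGR had 0 to 2 counts in each library. ERBB2 was at 81.1 and 97.1 CPM. The 5 leukocyte markers summed to 0.347 to 1.30 CPM in EGFP positive and 0.943 to 1.12 CPM in EGFP negative libraries, with CD3E at 0. The 5 fibroblast markers summed to 23.2 to 27.2 and 18.7 to 28.4 CPM, mostly COL1A1, with DCN at 0 and PDGFRB higher in EGFP negative cells (2.51 and 5.16 CPM). The 5 endothelial markers summed to 14.2 to 14.4 and 11.8 to 13.9 CPM, mostly KDR, with CDH5 at 0 and PECAM1 higher in EGFP negative cells (0.780 and 3.41 CPM). The part of such cells in the results was not tested.

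The comparison asked how EGFP negative cells differed from EGFP positive cells in each class of protease and inhibitor. EGFP negative cells had more transcript of the membrane-bound collagenase MMP14 and of MMP16 and MMP19. The sheddases ADAM8, ADAM15 and ADAM19 and the inhibitors TIMP1 and TIMP4 were also higher, ADAM15 by only 1.24-fold. EGFP negative cells had less of the secreted collagenase MMP1, of the membrane-type MMP24 and of 5 ADAMTS proteases. Of the 28 members tested, 8 rose and 7 fell in EGFP negative cells by edgeR's quasi-likelihood test (Benjamini-Hochberg adjusted p under 0.05). Among all 16413 tested genes 9.40% were higher and 9.46% lower, 18.9% in all, against 53.6% of the tested members. Bulk RNA cannot tell fewer cells with a transcript from less of it per cell.

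By class, the tested ADAMs with a catalytic site had 3 higher and 0 lower of 6, and the ADAMTS genes 0 higher and 5 lower of 6. Membrane-type MMPs had 2 higher and 1 lower of 4, secreted MMPs other than gelatinases 1 higher (MMP19) and 1 lower (MMP1) of 3, and inhibitors 2 higher and 0 lower of 5. The libraries of the groups did not overlap for 22 of the 28 tested members, against 57.4% of all tested genes. Of the 18 members at a mean of at least 10 CPM, 5 were higher and 4 lower (50.0%), where 23.6% of all 10430 genes at that level were called, 11.6% higher and 12.1% lower. The median log2 fold change of the 28 tested members was -0.003, and that of all tested genes -0.0028.

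Single libraries moved the number of calls. Leaving out EGFP positive library 1 gave 13 called members and 9.13% of all genes, and leaving out library 2 of that group 14 and 8.85%. When EGFP negative library 1 was left out, 17 members and 27.4% of all genes passed, and when library 2 of that group was left out, 18 and 30.1%. In these 4 fits and the 7 other alternatives, 13 of the 15 called members passed each time in the same direction. The other two were ADAM15 (adjusted p = 0.25 and 0.24 when EGFP positive library 1 or 2 was left out) and ADAMTS15 (adjusted p = 0.081 when EGFP positive library 1 was left out). MMP11, TIMP3, ADAM17 and HPSE passed in some fits that left out 1 EGFP negative library, as given with each.

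**Figure D1:**
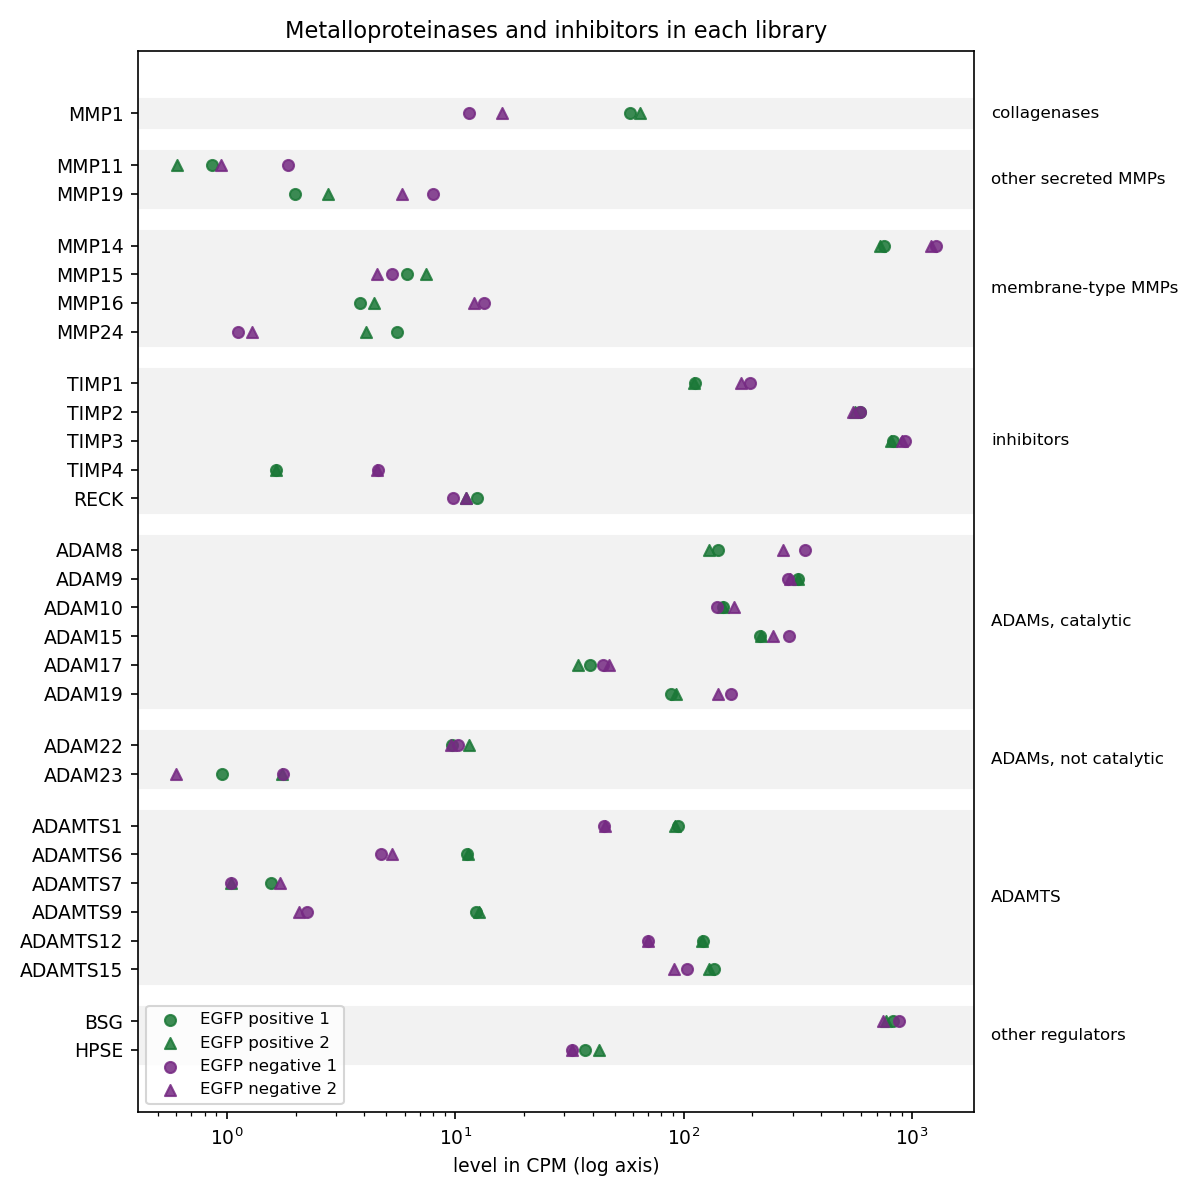
Level of each of the 28 tested members in each of the 4 libraries, in CPM on a log axis, grouped by class. Green and purple points, EGFP positive and EGFP negative libraries, stand apart for MMP1, MMP14 and ADAMTS9 and lie on each other for TIMP2 and BSG.

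**Figure D2:**
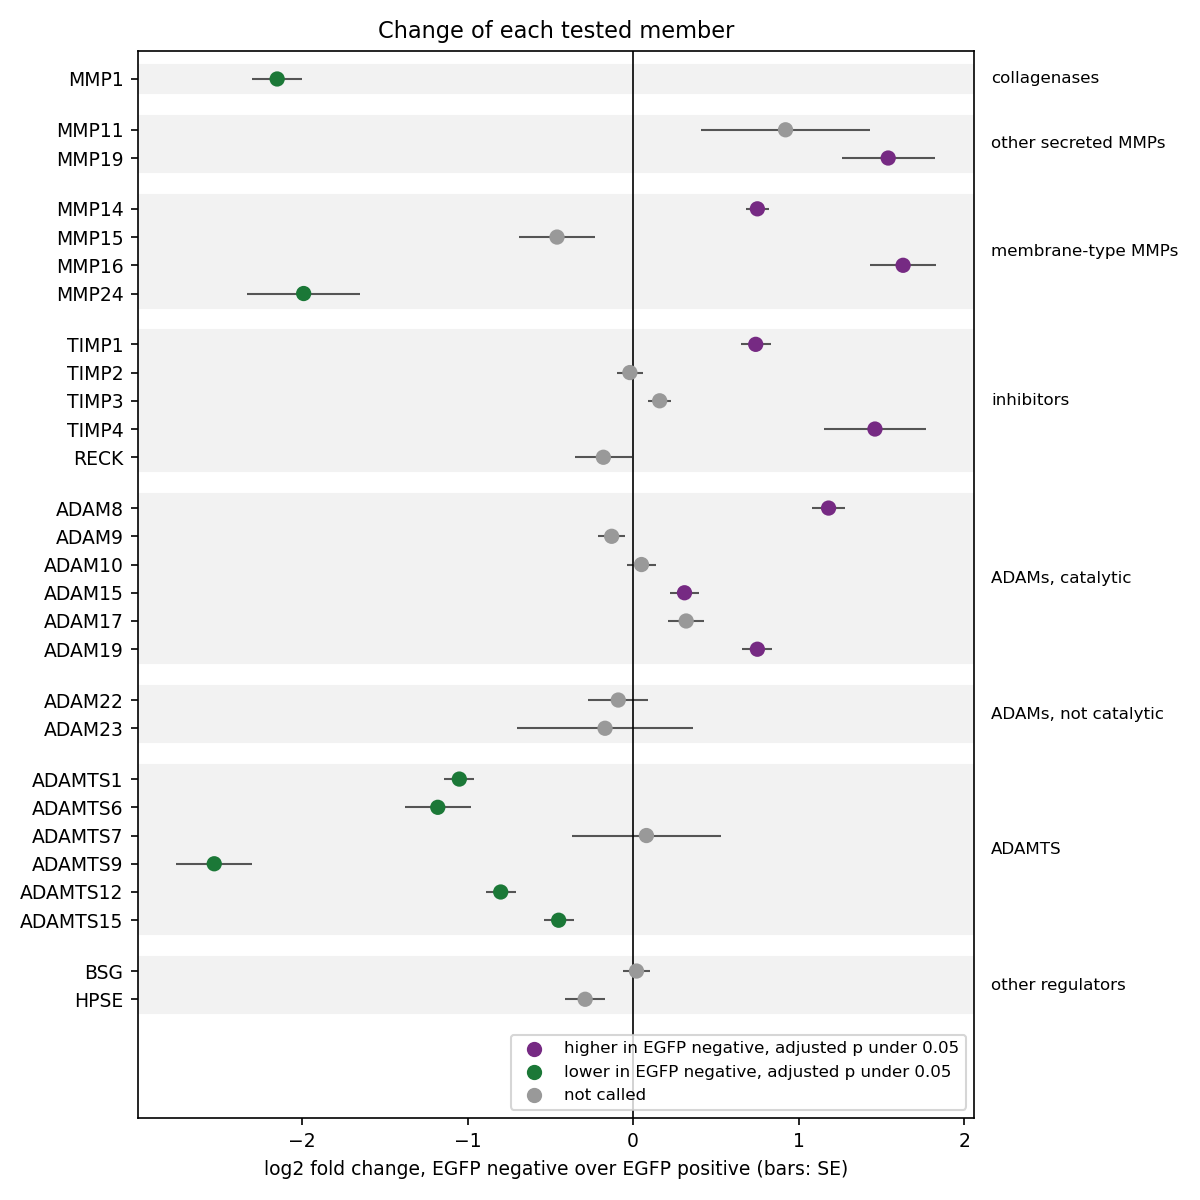
Log2 fold change of each tested member, EGFP negative over EGFP positive, with its standard error as a bar. The 3 called ADAMs lie to the right of 0 and the 5 called ADAMTS genes to the left.

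Stretches before the transcription start show the DNA next to the called members; they are given for 4 called genes, of the membrane-type MMPs, ADAMs and ADAMTS proteases, and for MMP10, a neighbour of MMP1 that carries a motif for AP-1, the transcription factor of FOS and JUN proteins. The sequences are the 250 bases before the RefSeq start (build GRCh38.p14), 5′ to 3′ on the strand of the gene, with the AP-1 motif TGANTCA, on either strand, in capitals. By the annotation used for counting, 9 bases of the MMP14 stretch and 29 of the ADAMTS12 stretch lie in the gene's own exons.
MMP14, higher, chr14:22836335-22836584 (plus strand): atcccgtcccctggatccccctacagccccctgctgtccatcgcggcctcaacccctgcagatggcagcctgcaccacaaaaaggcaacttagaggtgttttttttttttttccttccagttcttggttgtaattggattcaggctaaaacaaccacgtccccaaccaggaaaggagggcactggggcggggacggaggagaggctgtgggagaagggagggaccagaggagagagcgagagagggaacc
ADAM8, higher, chr10:133276869-133277118 (minus strand): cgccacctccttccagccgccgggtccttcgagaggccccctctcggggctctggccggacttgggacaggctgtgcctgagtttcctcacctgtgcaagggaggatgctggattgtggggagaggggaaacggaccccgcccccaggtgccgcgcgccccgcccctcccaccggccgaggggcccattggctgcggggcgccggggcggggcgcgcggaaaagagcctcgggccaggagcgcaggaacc
MMP24, lower, chr20:35226440-35226689 (plus strand): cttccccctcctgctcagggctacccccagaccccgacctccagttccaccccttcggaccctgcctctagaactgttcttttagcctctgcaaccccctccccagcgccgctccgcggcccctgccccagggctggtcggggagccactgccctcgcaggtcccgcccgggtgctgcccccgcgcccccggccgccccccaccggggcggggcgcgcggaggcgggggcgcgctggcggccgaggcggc
ADAMTS12, lower, chr5:33891991-33892240 (minus strand): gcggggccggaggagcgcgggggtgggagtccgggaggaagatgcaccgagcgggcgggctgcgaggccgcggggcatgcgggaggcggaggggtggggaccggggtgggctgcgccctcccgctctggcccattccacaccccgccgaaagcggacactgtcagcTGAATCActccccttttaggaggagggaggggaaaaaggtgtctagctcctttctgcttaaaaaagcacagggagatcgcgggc
MMP10, at 0 to 9 counts, chr11:102780629-102780878 (minus strand): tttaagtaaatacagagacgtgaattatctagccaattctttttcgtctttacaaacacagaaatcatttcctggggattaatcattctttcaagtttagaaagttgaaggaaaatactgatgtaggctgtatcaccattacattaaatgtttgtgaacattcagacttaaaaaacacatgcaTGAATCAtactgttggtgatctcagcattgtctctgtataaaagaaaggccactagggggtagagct

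Of the 43 members, 26 had an entry among the RefSeq promoters, with 30 starts. The AP-1 motif TGANTCA was found before 3 of the 30 starts, and before 6.6% of all 35116 starts in the table. It began 84 bases before the start of ADAMTS12, and 67 bases before those of MMP10 and MMP7. Of the promoters of called members, 0 of 6 higher and 1 of 3 lower held it. The called members MMP1, MMP16, MMP19, ADAMTS1, ADAMTS9 and ADAMTS15 had no entry, and the stretch of MMP10 does not stand in for that of MMP1. The core GGAA of ETS factors, on either strand, was before 29 of the 30 starts and 92.7% of all starts. No match overlapped between the motifs in these promoters. A match describes the letters of this window only.

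MMP14, also called MT1-MMP, sits in the cell membrane, cuts collagen and activates the MMP2 precursor. It lies on chromosome 14, 22836576 to 22849041 (GRCh38), and its promoter stretch is given above. Its level was 756 and 725 CPM in EGFP positive and 1276 and 1213 CPM in EGFP negative libraries, with no overlap. The group means were 740 ± 21.8 and 1245 ± 43.9 CPM (SD, n = 2), and the gene rose 1.68-fold (log2 fold change 0.75 ± 0.07, SE; adjusted p = 6.2e-06). Per length, MMP14 was the most abundant of the 16 MMP genes in every library, at 448, 440, 738 and 717 TPM (counts scaled to exonic length and library size, computed here; EGFP positive libraries first). It made up 84.3% of the summed MMP level in TPM in EGFP positive and 96.2% in EGFP negative cells.

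The other membrane-type MMPs were far less abundant and moved in both directions. MMP16 (chromosome 8, 88032011 to 88327483), like MMP14 a transmembrane activator of MMP2, was at 3.81 and 4.43 CPM in EGFP positive and 13.4 and 12.1 CPM in EGFP negative libraries. It rose 3.09-fold (log2 fold change 1.63 ± 0.20, SE; adjusted p = 6.7e-05). MMP24 (chromosome 20, 35226690 to 35276998), best known from nervous tissue, was at 5.54 and 4.08 CPM against 1.12 and 1.29 CPM. It fell 3.97-fold (log2 fold change -1.99 ± 0.34, SE; adjusted p = 8.7e-04), the largest standard error among the called members. Of its exonic bases, 14.8% are shared with MMP24OS on the opposite strand, which had 626 and 606 counts in EGFP positive and 951 and 786 in EGFP negative libraries, and the counting did not use strand. The part of MMP24OS in the result for MMP24 was not tested.

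MMP15, a transmembrane MMP, was at 6.14 and 7.46 CPM against 5.30 and 4.54 CPM. Its log2 fold change of -0.46 ± 0.23 (SE) did not pass (adjusted p = 0.19). The GPI-anchored members were near the limit of detection. MMP17 had 1 and 0 counts in EGFP positive and 12 and 7 in EGFP negative libraries, 18.2 times as high (95% interval for counting error 2.89 to 756). MMP17 was too low for the filter on counts, and with no filter it passed (adjusted p = 0.033). MMP25 had 8 and 3 counts against 3 and 5, and its libraries overlapped. It shares 16.5% of its exonic bases with MMP25-AS1 on the opposite strand, which had 12 and 12 counts against 19 and 11. The part of MMP25-AS1 in the MMP25 counts was not tested.

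Of the secreted collagenases, which cut fibrillar collagen, MMP1 was the one expressed at a level that could be tested. MMP1 (chromosome 11, 102789919 to 102798160) had 670 and 743 counts in EGFP positive and 143 and 188 in EGFP negative libraries. In CPM this was 58.0 and 64.5 against 11.5 and 16.1, so both EGFP negative libraries lay far below both EGFP positive ones. MMP1 fell 4.45-fold (log2 fold change -2.15 ± 0.15, SE; adjusted p = 1.9e-07), the smallest adjusted p of the 28 members. Its share of the summed MMP level in TPM came to 13.5% (EGFP positive) and 2.07% (EGFP negative). Set against MMP14, MMP1 had a ratio in TPM of 0.148 and 0.172 in the EGFP positive libraries and of 0.0174 and 0.0256 in the EGFP negative ones. The other collagenase among the members, MMP13, had 4, 2, 0 and 5 counts (EGFP positive libraries first).

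Of the gelatinases, which cut denatured collagen and collagen IV, neither reached the filter. MMP2, which MMP14 activates, had 0 and 2 counts in EGFP positive and 8 and 5 in EGFP negative libraries, 6.22 times as high (95% interval for counting error 1.41 to 56.8). With no filter it did not pass (adjusted p = 0.24). MMP9 had 0 counts in every library, where 3 counts would be 0.241 to 0.260 CPM. It shares 18.4% of its exonic bases with SLC12A5-AS1 on the opposite strand, which had 1, 0, 0 and 1 counts (EGFP positive libraries first). Whether the zeros of MMP9 mean no expression was not tested.

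MMP19, a secreted MMP that cuts basement membrane components, was at 1.99 and 2.78 CPM in EGFP positive and 8.03 and 5.83 CPM in EGFP negative libraries. It rose 2.91-fold (log2 fold change 1.54 ± 0.28, SE; adjusted p = 0.0016). It lies on chromosome 12, 55835433 to 55842950, and shares 24.4% of its exonic bases with TMEM198B on the opposite strand, which had 24 to 42 counts in each library. The part of TMEM198B in that result was not tested. MMP11, or stromelysin 3, was at 0.865 and 0.608 CPM against 1.85 and 0.943 CPM. Its adjusted p was 0.24, and 0.044 with EGFP negative library 2 left out.

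The stromelysins MMP3 and MMP10 and the matrilysin MMP7, with broad matrix substrates, were scarce. MMP3 had 20 counts in EGFP positive library 1, 3 in library 2 and 0 in both EGFP negative libraries. Set against a floor of 3 counts over the group, MMP3 was at least 8.01-fold lower in EGFP negative cells, and with no filter it passed (adjusted p = 0.022), but EGFP positive library 1 held 20 of its 23 counts. MMP10 had 0 and 9 counts in EGFP positive and 0 in both EGFP negative libraries, so MMP3 and MMP10 had their counts mainly in different libraries of the same group. MMP7 and MMP28, the latter also called epilysin, had 0 counts in every library; whether the zeros of MMP28 mean no expression was not tested.

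**Figure D3:**
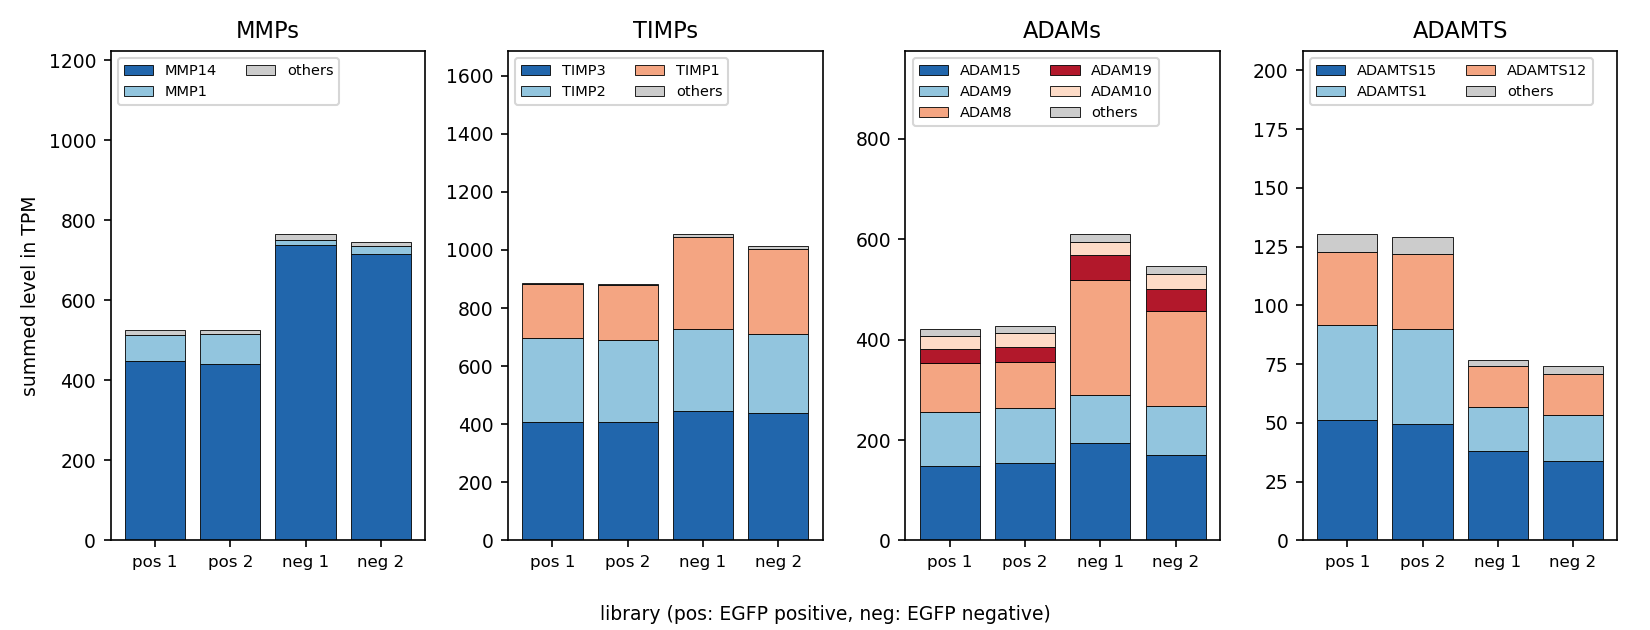
Summed level of the MMP, TIMP, ADAM and ADAMTS genes in each library, in TPM, with the most abundant genes as coloured segments; each panel has its own axis, starting at 0. MMP sums run from 526 and 528 TPM in EGFP positive to 765 and 747 TPM in EGFP negative libraries, and MMP14 makes up most of each.

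TIMP1, a soluble inhibitor of most MMPs, rose in EGFP negative cells together with MMP14. It lies on chromosome X, 47582408 to 47586789. Its level was 112 and 111 CPM in EGFP positive and 196 and 178 CPM in EGFP negative libraries, a 1.67-fold rise (log2 fold change 0.74 ± 0.09, SE; adjusted p = 3.8e-05). TIMP4 (chromosome 3, 12153068 to 12158912) was at 1.64 and 1.65 CPM against 4.58 and 4.54 CPM and rose 2.76-fold (log2 fold change 1.46 ± 0.31, SE; adjusted p = 0.0039). TIMP4 was a minor inhibitor, at 0.823% of the summed TIMP level in TPM in EGFP negative cells.

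TIMP2, TIMP3 and RECK did not pass. TIMP2, which blocks MMP14 and also takes part in its activation of MMP2, was at 592 and 565 CPM in EGFP positive and 589 and 550 CPM in EGFP negative libraries, which overlapped (log2 fold change -0.02 ± 0.08, SE; adjusted p = 0.89). TIMP3, bound to matrix and able to block ADAM17 and several ADAMTS enzymes, was at 828 and 809 CPM against 932 and 900 CPM. Its adjusted p was 0.13, with a log2 fold change of 0.16 ± 0.07 (SE). TIMP3 passed without EGFP negative library 2 (adjusted p = 0.0063) and with the replicate number as a block (0.038). RECK, a membrane-anchored inhibitor of MMPs, was at 12.5 and 11.2 CPM against 9.80 and 11.1 CPM (adjusted p = 0.53).

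The ratio of protease to inhibitor depended on the inhibitor. In TPM, EGFP positive libraries had 1.54 and 1.55 times as much MMP14 as TIMP2, and EGFP negative libraries 2.61 and 2.66 times. The ratio of MMP14 to TIMP3 was 1.10 and 1.08 against 1.65 and 1.63. Both EGFP negative libraries were above both EGFP positive ones for these ratios, where an exact two-sided permutation test of 2 against 2 libraries can give no p below 0.33. For MMP14 to TIMP1 the groups overlapped, at 2.41 and 2.34 against 2.33 and 2.44. These are ratios of transcripts, not of proteins or activities.

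ADAM8, a membrane protease first known from leukocytes, showed the largest fold change among the ADAMs. It lies on chromosome 10, 133262420 to 133276868, with its promoter stretch above. Its level was 142 and 129 CPM in EGFP positive and 341 and 273 CPM in EGFP negative libraries, a 2.27-fold rise (log2 fold change 1.18 ± 0.10, SE; adjusted p = 2.6e-06). In TPM its share of the summed ADAM level came to 22.3% (EGFP positive) and 36.0% (EGFP negative). The 5 leukocyte markers above summed to no more than 1.30 CPM in any library. The part of such cells in the ADAM8 result was not tested.

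ADAM19, a sheddase of neuregulins (chromosome 5, 157477304 to 157575775), was at 87.8 and 92.5 CPM against 162 and 141 CPM and rose 1.68-fold (log2 fold change 0.75 ± 0.09, SE; adjusted p = 7.2e-05). ADAM15, whose disintegrin domain binds integrins (chromosome 1, 155051286 to 155062775), was at 216 and 218 CPM in EGFP positive and 289 and 247 CPM in EGFP negative libraries. It rose 1.24-fold (adjusted p = 0.027), the smallest change of the called members. This call was lost without either EGFP positive library, as given above.

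The main sheddases of growth factors, cytokines and Notch did not pass. ADAM10, which cuts Notch and many other receptors, was at 148 CPM in both EGFP positive libraries and at 140 and 166 CPM in the EGFP negative ones, on both sides of them (log2 fold change 0.05 ± 0.09, SE; adjusted p = 0.8). ADAM17, which releases TNF and ligands of the EGF receptor, was at 38.8 and 34.5 CPM against 44.5 and 46.9 CPM. Its adjusted p was 0.058, with a log2 fold change of 0.32 ± 0.11 (SE). Its groups did not overlap, and ADAM17 passed without EGFP negative library 1 (adjusted p = 0.0087), without library 2 (0.034), with upper quartile scaling (0.046) and with the replicate number as a block (0.0096). ADAM17 shares 17.2% of its exonic bases with IAH1 on the opposite strand, which had 286 and 302 counts against 392 and 373, and the part of IAH1 was not tested.

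ADAM9, a widely expressed sheddase, was at 316 and 318 CPM in EGFP positive and 286 and 293 CPM in EGFP negative libraries (adjusted p = 0.27). ADAM12, best known from muscle and placenta, had 2, 5, 6 and 1 counts and was too low to test. ADAM22 and ADAM23 lack a working catalytic site and are receptors of LGI proteins in the nervous system. ADAM22 was at 9.69 and 11.5 CPM against 10.3 and 9.60 CPM (adjusted p = 0.79). ADAM23 had 11 and 20 counts against 22 and 7, so that replicates differed more than the groups (adjusted p = 0.87).

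ADAMTS genes that could be tested were lower in EGFP negative cells in 5 of 6 cases. The largest change was in ADAMTS9, which cuts the proteoglycans versican and aggrecan. It lies on chromosome 3, 64515654 to 64688000. Its counts were 142 and 146 in EGFP positive and 28 and 24 in EGFP negative libraries, or 12.3 and 12.7 against 2.25 and 2.06 CPM. ADAMTS9 fell 5.77-fold (log2 fold change -2.53 ± 0.23, SE; adjusted p = 3.2e-06), the largest fold change of the 28 tested members.

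ADAMTS1, a protease of the same proteoglycans (chromosome 21, 26835755 to 26845409), was at 94.6 and 91.8 CPM in EGFP positive and 44.6 and 45.2 CPM in EGFP negative libraries. It fell 2.08-fold (log2 fold change -1.05 ± 0.09, SE; adjusted p = 3.2e-06). ADAMTS15, a further member of the proteoglycan-cutting branch (chromosome 11, 130448645 to 130476645), had the highest ADAMTS level in TPM in every library. It was at 136 and 129 CPM against 103 and 90.7 CPM and fell 1.37-fold (log2 fold change -0.45 ± 0.09, SE; adjusted p = 0.0036, and 0.081 without EGFP positive library 1).

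ADAMTS12, which cuts cartilage oligomeric matrix protein (chromosome 5, 33523535 to 33892019), was at 122 and 120 CPM against 70.0 and 69.6 CPM. It fell 1.74-fold (log2 fold change -0.80 ± 0.09, SE; adjusted p = 2.4e-05). It was the called member with an AP-1 motif in the promoter stretch above, among the 9 promoters of called members in the RefSeq table. ADAMTS6, linked to fibrillin-rich microfibrils (chromosome 5, 65148738 to 65481920), was at 11.3 and 11.4 CPM against 4.74 and 5.31 CPM and fell 2.26-fold (adjusted p = 7.9e-04). ADAMTS7, the sister enzyme of ADAMTS12, had 18 and 12 counts against 13 and 20 and did not pass (adjusted p = 0.93). Its named copies ADAMTS7P1, ADAMTS7P3 and ADAMTS7P4 had 0 to 2 counts each over the 4 libraries. How many reads ADAMTS7 shares with them was not tested, so its value is uncertain.

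As a sum, the 11 ADAMTS genes were at 130 and 129 TPM in EGFP positive and 76.6 and 74.1 TPM in EGFP negative libraries. The sum of the 9 ADAM genes moved the other way, from 422 and 427 TPM to 610 and 547 TPM. No test was made of these sums, and the groups did not overlap in either. The ADAM genes did not all rise. ADAM8 went from a mean of 94.7 to 209 TPM and ADAM9 from 108 to 96.2 TPM, and 3 of the 8 tested were called. The remaining ADAMTS genes were too low to test. ADAMTS4 and ADAMTS10 had 0 counts in every library, and whether that means no expression was not tested. ADAMTS5 had 0, 0, 0 and 2, ADAMTS13, which cuts von Willebrand factor, 0, 0, 3 and 0, and the procollagen protease ADAMTS14 1, 2, 3 and 6. At this depth a difference in these genes was not detectable.

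BSG, also called EMMPRIN, a surface protein that induces MMPs in neighbouring cells, was among the most abundant members at 826 and 772 CPM in EGFP positive and 873 and 744 CPM in EGFP negative libraries. The EGFP negative libraries lay on both sides of the EGFP positive ones (log2 fold change 0.02 ± 0.08, SE; adjusted p = 0.93). HPSE, or heparanase, which cuts heparan sulfate chains, was at 36.9 and 42.6 CPM against 32.5 and 32.4 CPM. Its adjusted p was 0.098, with a log2 fold change of -0.29 ± 0.12 (SE). It passed without EGFP negative library 1 (adjusted p = 0.048) and with the replicate number as a block (0.03).

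**Figure D4:**
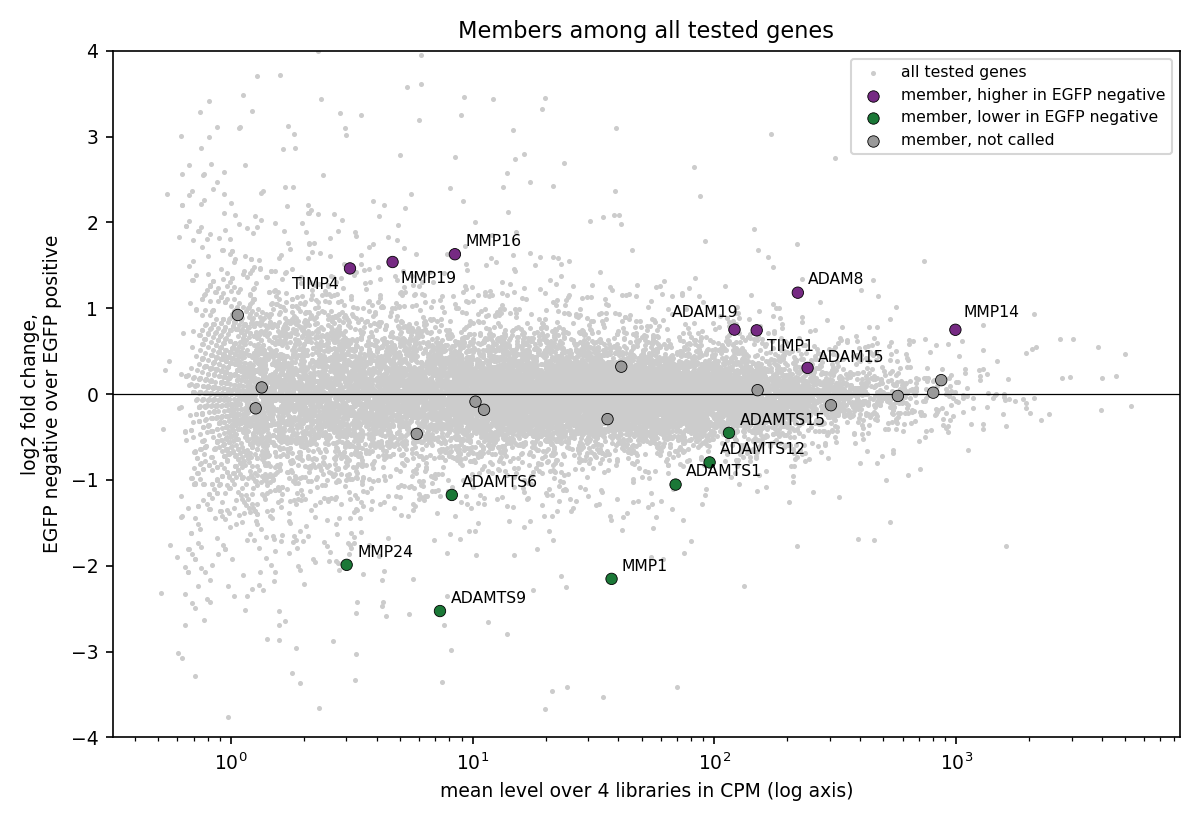
Log2 fold change, EGFP negative over EGFP positive, against the mean level over 4 libraries in CPM on a log axis, for all 16413 tested genes (grey; 29 lie outside the axis) and the 28 tested members (large points, called ones named). ADAMTS9, MMP1 and MMP24 lie lowest and MMP16, MMP19 and TIMP4 highest among the members.

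Genes around these proteases were counted from lists that cover the rest of the families, activators, partners, other inhibitors and substrates. For comparison, 9.40% of all 16413 tested genes were higher and 9.46% lower, 18.9% in all. Of 27 other MMP, ADAM and ADAMTS genes, 5 could be tested, with 1 higher and 1 lower: ADAMTS17 at 3.08 and 6.95 CPM (adjusted p = 0.0042) and ADAMTS16 at 34.1 and 18.6 CPM (adjusted p = 2.8e-04), group means with EGFP positive first. So ADAMTS17 rose where the called ADAMTS members fell. Of 6 tested ADAMTS-like genes, which have no protease domain, 0 were higher and 2 lower, THSD4 (38.1 and 25.1 CPM, adjusted p = 0.0025) and ADAMTSL4 (9.96 and 6.29 CPM, adjusted p = 0.036).

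Activators of the inactive precursors had 2 higher and 1 lower of 9 (33.3% called, against 18.9% of all tested genes). PLAU, the urokinase that makes plasmin, was at 466 and 661 CPM (adjusted p = 2.5e-04) and the cathepsin gene CTSB at 126 and 189 CPM (adjusted p = 2.7e-04), while PLAT, the tissue plasminogen activator, was at 222 and 184 CPM (adjusted p = 0.037). Partners that carry ADAM10 and ADAM17 to the surface had 2 higher and 1 lower of 8 (37.5% called). Of the tetraspanins that bind ADAM10, TSPAN14 fell from 234 to 152 CPM (adjusted p = 1.5e-04) and TSPAN15 rose from 23.6 to 34.2 CPM (adjusted p = 0.015), beside the ADAM10 values given above. RHBDF1, an iRhom that binds ADAM17, rose from 30.2 to 43.9 CPM (adjusted p = 0.016).

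Among other protease inhibitors, SERPINE2 rose from 29.8 to 55.8 CPM (adjusted p = 7.2e-05) and the cystatin gene CST3 from 195 to 328 CPM (adjusted p = 2.4e-04). Membrane proteins that are shed had 4 higher and 5 lower of 24 (37.5% called, against 18.9% of all tested genes). Among them TNFRSF1A, a TNF receptor, rose from 104 to 203 CPM (adjusted p = 2.7e-06) and TGFA, a ligand of the EGF receptor, from 58.0 and 54.8 CPM in the libraries to 89.7 and 94.4 CPM (adjusted p = 1.3e-04). AREG, another such ligand, fell from 27.6 to 12.4 CPM (adjusted p = 4.5e-05) and L1CAM from 114 to 75.3 CPM (adjusted p = 3.0e-04). Matrix substrates had 4 higher and 5 lower of 15 (60.0% called). THBS1 and THBS2 were lower (adjusted p = 1.1e-09 and 4.6e-09) and COL7A1 and COL18A1 higher (4.7e-07 and 2.0e-06). Median log2 fold changes of the tested genes in these lists were -0.13 for matrix substrates, -0.03 for shed proteins, 0.03 for partners and 0.09 for activators.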

How the data were processed

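RNA selected by its polyA tail from 2 EGFP positive and 2 EGFP negative samples of MDA-MB-231 cells was sequenced with a strand-specific kit, per the labels' protocols. The authors deposited raw fragment counts per gene name, made by featureCounts 2.0.1 over exons of the GENCODE 46 basic annotation in paired mode with no strand option, per the file headers. The aligner is not given in the sources used here. The submitters' processing notes name GRCh37 and hg19, but the coordinates in the tables are of GRCh38: 99.4% of 18693 protein-coding genes, and all 43 members, had a start or end no more than 5000 bp from that in GENCODE 29.

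Genes were kept by filterByExpr (minimum count 10, minimum total 15) and tested with edgeR 4.0.16 in R 4.3.3 (quasi-likelihood fit of all 4 libraries, group as the only term, TMM size factors, two-sided, Benjamini-Hochberg adjustment over 16413 genes at 0.05). The biological coefficient of variation was 7.52%. CPM used TMM-scaled library sizes, and TPM was computed from counts over exonic length. Standard errors of called members' log2 fold changes were 0.07 to 0.34. Counting intervals and floors (3 counts) cover counting error only. Replicates differed by more than sampling noise (chi-square per degree of freedom 2.14 and 6.71). The script was tested on simulated counts. Alternatives were scaling by RLE or upper quartiles, leaving the filter out or making it stricter (1 CPM in 2 libraries and 100 counts in all), DESeq2 1.42.0, limma-voom (limma 3.58.1), the replicate number as a block, and each library left out. Protein sequences were not used here. Members and lists were chosen with earlier results of these data known; every member is accounted for, and of each list up to 4 called genes with the smallest adjusted p are named. Some genes of the marker and inhibitor lists are not reported here, and no count is given for the list of other inhibitors. Figures were drawn with matplotlib 3.10.9.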

Additional observations from a re-analysis of the deposited data

How the results depend on the processing

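Recomputing the 28 tested members under 11 alternatives gave 305 values, of which 293 kept their side of the threshold, 3 lost a call, 9 gained one and 0 turned their direction with a call. All 15 called members kept their call with RLE and upper quartile scaling, both filters, DESeq2, limma-voom and the replicate block. Over all genes 1543 were higher and 1552 lower, and by DESeq2 1044 were higher and 997 lower. Over fits without 1 library, higher genes numbered 720 to 2477 and lower genes 715 to 2465; an arm with 1 library is assumed there to vary like the other. With the replicate number as a block, 2297 genes were higher and 2407 lower, and 18 members were called in all. Whether libraries with the same replicate number share a culture or batch, the labels do not say. Deviations from the group means of EGFP positive library 1 and EGFP negative library 1 correlated at 0.114 across genes. With 2 libraries in a group, the deviations of library 2 mirror those of library 1 and add nothing. The summed level of the inhibitors in EGFP positive cells was 890 TPM, and 886 with upper quartile scaling. Depth limits the 15 members that were not tested.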

Other observations

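MMP1, MMP3, MMP7, MMP10 and MMP13 lie in a cluster of 9 MMP genes on chromosome 11. From 500 kb before its first to 500 kb after its last MMP gene (102020508 to 103455732, GRCh38), 10 genes were tested, of which 1 was higher and 4 lower in EGFP negative cells. MMP1 was among these 4. Of all tested genes, 9.40% were higher and 9.46% lower. MMP1 was the 1 MMP gene of the 9 with enough counts for the test. Its lower neighbours were BIRC3 (35.0 and 33.1 CPM in EGFP positive, 18.2 and 26.5 CPM in EGFP negative libraries, adjusted p = 0.013), BIRC2 (group means 213 and 165 CPM, EGFP positive first, adjusted p = 0.012) and DCUN1D5 (92.8 and 69.1 CPM, adjusted p = 0.0044), all with smaller changes than the 61.2 and 13.8 CPM of MMP1. YAP1, in the same stretch, was higher (188 and 246 CPM, adjusted p = 0.0034), and TMEM123, the nearest tested gene on the side of MMP7, was at 401 and 409 CPM (adjusted p = 0.84).

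All 20 transcription factors listed for MMP promoters were tested, and 5 were higher and 3 lower. The share over all 16413 tested genes was 9.40% higher and 9.46% lower, 18.9% in all. The AP-1 subunit gene FOSL1 rose from 349 to 515 CPM (adjusted p = 1.9e-04) and the ETS gene ETV1 from 82.1 to 147 CPM (adjusted p = 1.6e-05). SP1 rose from 104 to 139 CPM (adjusted p = 0.0037), and ETS1 fell from 302 to 238 CPM (adjusted p = 0.0062). MMP1, in whose regulation AP-1 and ETS factors are known to act, had its fall beside rises of FOSL1 and ETV1 and a fall of ETS1. The called AP-1 genes of the list went both ways, as did the called ETS genes. No relation of MMP1 to them was tested.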
